A study of Mus musculus with 20 samples.

Results

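The Setd2 knockout line 1 (KO line 1) and line 2 (KO line 2) of this ATAC-seq study were compared through the regions called accessible in 1 line and not called in the other. The peak lists of 6 knockout libraries, 3 of line 1 and 3 of line 2 from the same 3 conditions, were merged wherever peaks shared at least 1 bp, which gave 79257 regions. A line 1 region was a region with a peak in all 3 lists of line 1 and in no list of line 2, and a line 2 region was the reverse. There were 6857 line 1 regions, 8.65% of the merged regions, and 458 line 2 regions, 0.578%. Another 22305 regions had a peak in all 6 lists and are called shared regions here. The line 1 lists were longer, with 63530 peaks at D0, 61045 at D1 CTL and 48460 at D1 MR against 30629, 46664 and 35201 in line 2. When each list was reduced to its 30000 strongest peaks, the numbers were 1306 for line 1 and 1315 for line 2. The excess of line 1 regions was therefore present with lists of unequal length and absent with lists of equal length.

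All cells were C2C12, a mouse myoblast line that withdraws from the cell cycle and fuses into myotubes when it is induced to differentiate. The early libraries were taken at day 0 (D0, no medium named) and at day 1 in control medium (D1 CTL) or under methionine restriction (D1 MR), with 2 wild-type (WT) libraries and 1 library of each knockout line per condition. The D5 libraries, in both media, took no part in choosing the regions. The labels give the genotype of the knockout libraries as KO and the series names the gene, Setd2. They do not say how the lines were made, whether each is 1 clone, or whether they share a parent culture with the WT cells. In the names of the peaks the lines appear as replicates 1 and 2 of 1 knockout group. The 3 libraries of a line share that line's genome and history, so they are not independent samples of knockout cells.

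Setd2 encodes the histone methyltransferase that adds the last methyl group of H3K36me3 as it travels with RNA polymerase II along transcribed genes. The mark recruits readers such as the DNA methyltransferase DNMT3B and restrains new initiation inside gene bodies, and the methyl donor, S-adenosylmethionine, is made from methionine. ATAC-seq inserts sequencing adapters into DNA that is not wrapped in compact chromatin, so its peaks fall mostly at promoters and enhancers. Clonal cell lines of 1 genotype can differ in both their accessible regions and their chromosome content.

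Promoters of genes with an annotated start in a line region are printed here because they show which DNA had peaks called in 1 line and not the other. A missing call does not show that the DNA was closed. The windows run from 250 bases before to 50 after an annotated start, which can be an alternative start inside the gene (RefSeq, GRCm38.p6). They read 5′ to 3′ on the gene's strand, and capitals mark the bases inside the line region. Uggt2 (chr14:119099385-119099684, minus strand; a sensor of misfolded glycoproteins) had the strongest line 1 region covering at least 100 bases of a window, and Enox2 (chrX:49288193-49288492, minus strand; a cell-surface oxidase) that of line 2. Kif6 (chr17:49614922-49615221, plus strand; a kinesin) and Lrtm1 (chr14:29017958-29018257, plus strand) lay in the stretches with the most line 1 regions, and Nrxn3 (chr12:89812233-89812532, plus strand; the synaptic adhesion protein neurexin 3) in that with the most line 2 regions. The Nrxn3 window is at an internal start, and its line 2 region lies 522368 bp from the nearest gene end.
Uggt2: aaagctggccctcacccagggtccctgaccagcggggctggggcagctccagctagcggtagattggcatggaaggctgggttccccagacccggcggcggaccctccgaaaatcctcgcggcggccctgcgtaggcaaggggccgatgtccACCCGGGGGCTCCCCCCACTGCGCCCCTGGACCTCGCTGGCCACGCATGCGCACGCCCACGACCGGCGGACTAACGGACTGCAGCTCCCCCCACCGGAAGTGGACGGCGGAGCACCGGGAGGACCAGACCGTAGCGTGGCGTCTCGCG
Kif6: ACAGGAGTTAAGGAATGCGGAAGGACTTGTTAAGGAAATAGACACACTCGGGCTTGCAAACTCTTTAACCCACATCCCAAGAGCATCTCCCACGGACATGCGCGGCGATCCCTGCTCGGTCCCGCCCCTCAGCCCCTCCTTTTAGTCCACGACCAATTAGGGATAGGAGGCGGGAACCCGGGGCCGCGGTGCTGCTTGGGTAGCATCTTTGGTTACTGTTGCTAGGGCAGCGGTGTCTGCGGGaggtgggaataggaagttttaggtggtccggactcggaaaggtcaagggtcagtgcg
Lrtm1: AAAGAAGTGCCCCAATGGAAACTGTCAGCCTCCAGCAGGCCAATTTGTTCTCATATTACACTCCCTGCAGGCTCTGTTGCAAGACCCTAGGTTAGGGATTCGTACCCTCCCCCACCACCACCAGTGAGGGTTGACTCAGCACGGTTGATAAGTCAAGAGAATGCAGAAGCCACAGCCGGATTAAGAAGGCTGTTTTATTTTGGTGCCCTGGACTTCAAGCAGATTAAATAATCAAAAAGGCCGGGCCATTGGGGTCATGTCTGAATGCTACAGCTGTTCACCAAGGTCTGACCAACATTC
Enox2: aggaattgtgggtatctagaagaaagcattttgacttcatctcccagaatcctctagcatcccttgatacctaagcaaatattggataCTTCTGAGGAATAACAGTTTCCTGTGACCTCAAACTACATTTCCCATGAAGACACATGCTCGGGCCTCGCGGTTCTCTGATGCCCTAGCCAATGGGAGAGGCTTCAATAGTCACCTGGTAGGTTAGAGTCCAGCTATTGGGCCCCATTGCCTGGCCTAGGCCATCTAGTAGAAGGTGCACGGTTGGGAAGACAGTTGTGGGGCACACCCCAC
Nrxn3: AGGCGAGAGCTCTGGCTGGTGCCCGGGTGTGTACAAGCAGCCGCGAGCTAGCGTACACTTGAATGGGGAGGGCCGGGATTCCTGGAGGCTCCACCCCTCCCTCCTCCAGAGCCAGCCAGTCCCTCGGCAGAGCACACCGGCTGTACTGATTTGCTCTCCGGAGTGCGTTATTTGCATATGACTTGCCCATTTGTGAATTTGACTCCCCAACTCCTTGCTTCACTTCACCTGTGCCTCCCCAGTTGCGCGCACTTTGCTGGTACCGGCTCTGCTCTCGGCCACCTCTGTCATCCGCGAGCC
The Uggt2, Enox2 and Nrxn3 regions were called in 6 of 6 early WT lists, the Kif6 region in 1 and the Lrtm1 region in 0. The E-box, the motif CANNTG bound by MyoD and other basic helix-loop-helix factors, was read on both strands. It occurred 5 times in the Nrxn3 window, 3 times in the Enox2 window, 1 time in the Lrtm1 window and 0 times in the other two. Among all 32851 RefSeq promoter windows 72.3% held at least 1 E-box, against 229 of 342 windows touched by line 1 regions (67.0%) and 21 of 24 touched by line 2 regions (87.5%). The AP-1 motif TGANTCA was in 6.43% of the line 1 windows and in 4 of 24 line 2 windows, against 7.81% of all windows. Windows of alternative starts of 1 gene share sequence, and a match describes letters only.

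The libraries of a line resembled each other more than those of the other line. The base-pair Jaccard index, the covered length 2 lists share divided by their joint length, was 0.566 to 0.680 among the line 1 lists and 0.510 to 0.554 among the line 2 lists. Between lines it was 0.321 to 0.481, below every pair within a line. Line 1 peaks were also wider, with a median width of 181 ± 15.6 bp against 144 ± 13.9 bp in line 2 (mean ± SD over the 3 conditions, n = 3 libraries each, 1 per condition). The share of peaks within 1 kb of an end of a protein-coding gene, the gene-end share, was 20.9 ± 0.724% in line 1 and 25.3 ± 0.140% in line 2. The background pileup, a measure of depth computed from each list, was 5.20, 3.50 and 3.15 fragments per position in line 1 at D0, D1 CTL and D1 MR, and 2.52, 2.30 and 2.76 in line 2. It did not overlap between the lines, so depth moved with line in every comparison here, and its part in the differences was not tested. Width, gene-end share, background and the log2 number of peaks (15.81 against 15.17) differed in the same direction in 3 of 3 conditions. With 3 libraries against 3 the smallest possible exact permutation p is 0.1, two-sided for these 4 quantities and one-sided for the Jaccard index within lines against between them. Each of the 5 tests reached it (adjusted p 0.1 over 5 tests), so no difference between the lines could pass 0.05. The libraries of a line are 1 line in 3 conditions, so this p does not measure how knockout lines vary. It also ignores the pairing by condition, which is used further below. With the 30000 strongest peaks of each list the gene-end share was higher in line 1 by 1.21 percentage points (exact permutation p = 0.6), the opposite direction.

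Similarity to wild type did not separate the lines in one direction. The mean Jaccard index with the 2 WT libraries of the same condition was 0.488 for line 1 and 0.463 for line 2 at D0, 0.458 and 0.534 at D1 CTL, and 0.509 and 0.435 at D1 MR. Line 1 was the closer at D0 and D1 MR and line 2 at D1 CTL. The 2 WT libraries of a condition had indices of 0.681, 0.657 and 0.715 with each other, above every value between a knockout line and WT in the same condition. Within 1 condition, the regions found in line 1 alone numbered 35415 at D0, 23151 at D1 CTL and 18820 at D1 MR. These were 54.4%, 34.1% and 35.3% of the regions merged from the 2 lists of the condition. Those found in line 2 alone numbered 1656, 6886 and 4963 (2.54%, 10.2% and 9.30%). The imbalance was steepest at D0, where the list lengths and the backgrounds of the lines were also furthest apart.

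Line 1 regions were mostly regions that WT cells called in some libraries or in none, and line 2 regions were more often regions that all early WT libraries called. Of the line 1 regions, 973 (14.2%) had a peak in 6 of 6 early WT lists, 3284 (47.9%) in 1 to 5 and 2600 (37.9%) in 0. Of the line 2 regions, 178 (38.9%) had a peak in 6 of 6, 150 (32.8%) in 1 to 5 and 130 (28.4%) in 0. Shared regions were called in 6 of 6 WT lists in 88.3% of cases. Both sets thus held regions called in WT but not in 1 line, and regions called in 1 line but not in WT. Per WT list the share called ran from 25.1% to 54.0% for line 1 regions and from 45.2% to 67.5% for line 2 regions, and it was higher for line 2 regions in each of the 6 lists. The highest share of both came from WT D1 MR replicate 1, which had the most peaks (69881). At equal list length 40.8% of line 1 regions and 56.8% of line 2 regions were called in 6 of 6 WT lists, and 20.2% and 13.4% in 0.

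**Figure D1:**
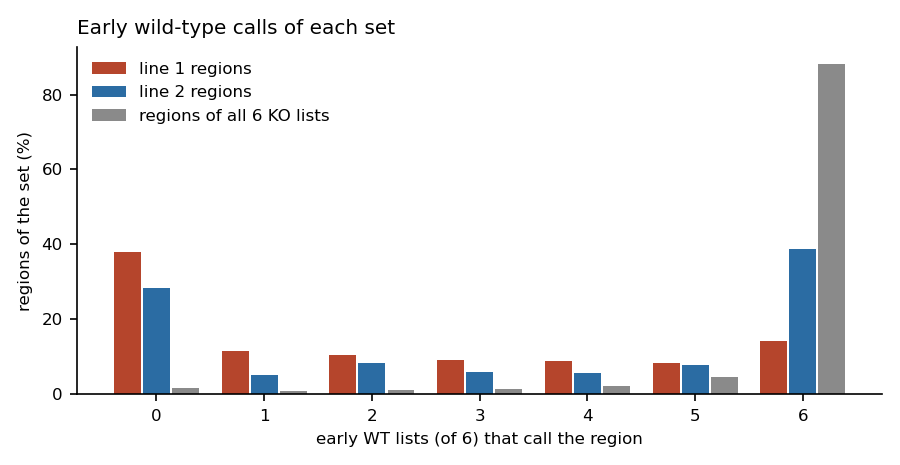
Percent of each set of regions (y axis) by the number of the 6 early WT lists that call the region (x axis, 0 to 6), for line 1 regions (red), line 2 regions (blue) and regions called in all 6 KO lists (grey). The red bars are tallest at 0 lists (37.9%), the blue bars at 6 (38.9%) and 0 (28.4%), and the grey bars at 6 (88.3%).

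Regions next to the rule's limits showed where the sets end. The 5413 regions with 3 line 1 calls and 1 line 2 call were called in 6 of 6 WT lists in 38.4% of cases, and the 8219 with 2 line 1 calls and no line 2 call in 8.77%. For line 2 the matching numbers were 473 regions with 40.2%, and 979 regions with 22.5%. Median width fell from 387 bp in shared regions to 199 bp in line 1 regions and 151.5 bp in line 2 regions. Few line regions were strong. Strength was taken as the lowest of the 3 percentile ranks of a region's strongest peak in its line's lists, ranked by −log10 p (100 is the strongest peak). It was at least 75 for 52 line 1 regions (0.758%) and 11 line 2 regions (2.40%). For shared regions the lowest rank over all 6 lists was taken, and it was at least 75 for 4487 (20.1%).

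The 6 strongest line 1 regions that all early WT lists also called were assigned to Adgrb1, Daam2, Cbln1, Arhgap44, Cks1brt and Pdcd6ip. The authors' fold enrichment, pileup over local background within 1 list, is given for each. A 226 bp region at chr15:74214668-74214893, 301303 bp from Adgrb1, whose product is an adhesion receptor for apoptotic cells, had folds of 18.5, 14.9 and 11.2 at D0, D1 CTL and D1 MR in line 1. In the WT lists its fold lay between 5.10 and 8.17 with a median of 6.81, and line 2 had no peak there. A region inside Daam2, a formin that builds actin filaments, had folds of 8.42, 8.74 and 8.13 in line 1 and 4.23 to 6.56 in WT. The region 41246 bp from Cbln1, a secreted organiser of synapses, had 8.13, 12.4 and 11.9, against 5.04 to 8.17 in WT. The regions were picked by their line 1 ranks, which favours high line 1 folds, and folds of different lists are scaled to their own backgrounds. The region in Arhgap44 had 7.57, 10.8 and 11.7, overlapping the WT range of 4.86 to 9.82. The remaining 2 of the 6, near Cks1brt and Pdcd6ip, had line 1 folds of 7.89 to 13.6. Of these 6 regions, 5 were called in 4 of 4 WT lists at D5, and that near Pdcd6ip in 1.

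The strongest line 1 regions with no early WT peak had strengths of 76.1 to 87.7, against 81.3 to 91.8 for those that WT shared. A region inside Ndufa10, a subunit of respiratory complex I (chr1:92448367-92448644), had folds of 8.89, 12.3 and 10.3. A region 136806 bp from Npy, the neuropeptide Y gene (chr6:49966313-49966586), had 8.29, 10.8 and 13.3. It was the 1 region of these 6 with a peak in a D5 list of line 1, the D5 MR list, which holds 1881 peaks in all. Regions inside Plce1, a phospholipase C, and Gbp4, an interferon-induced GTPase, and those nearest 1500009L16Rik and Cacna2d3, a calcium channel subunit, had folds of 6.80 to 12.4. At D5 the Ndufa10 region was called in 2 of 4 WT lists and in both line 2 lists, so it was not confined to line 1 at that day. The other 5 were called in no WT and no line 2 list at D5.

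The strongest line 2 regions that WT shared included promoter and gene-body sites. The Enox2 promoter region printed above (chrX:49288176-49288404) had folds of 9.50, 11.2 and 9.59 in line 2 at D0, D1 CTL and D1 MR. In WT it had folds of 7.82 to 17.2 with a median of 11.7, and line 1 had no peak there in any of its 3 longer lists. The Nrxn3 region (chr12:89811912-89812567) had 8.52, 7.54 and 7.84, within the WT range of 5.48 to 9.12. The region in Efhd1, a mitochondrial calcium-binding protein, had 6.997, 11.1 and 10.97 against 8.91 to 11.8 in WT. At these 3 sites line 2 lay within the WT range, except Efhd1 at D0, while line 1 was without a call. A region 1559 bp from Dio2, the deiodinase that activates thyroid hormone, had 6.85, 7.98 and 7.54 against 5.36 to 8.98 in WT. The region in Limk1, a kinase that acts on the actin-severing protein cofilin, had 7.204, 7.71 and 6.88, all above the WT range of 5.18 to 6.07. That in Adgrd1, an adhesion G protein-coupled receptor, had 8.15, 12.6 and 6.62, below the WT range of 9.21 to 17.9 at D0 and D1 MR. These 6 regions were called in 4 of 4 WT lists at D5 and in the line 2 D5 CTL list, and 5 of them, all but Adgrd1, in the line 2 D5 MR list.

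The strongest line 2 regions without any early WT call were assigned to Cadm2, Cdh9, Lsamp, Toporsl, Aim2 and Spef2. The Cdh9 region (chr15:17801532-17801636, 944394 bp from the gene) had folds of 6.79, 9.86 and 5.56 and the Cadm2 region (chr16:67646609-67647292) 5.76, 8.17 and 6.34. The region inside Aim2, a sensor of cytosolic DNA, had 5.67, 6.67 and 7.06. The other 3 had folds of 5.32 to 8.80. All 6 were called in the line 2 D5 CTL list, 3 of them in the line 2 D5 MR list (Cadm2, Aim2 and Spef2), and none in the 4 WT D5 lists.

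The D5 lists, which the rule did not use, showed the same separation for line 2. Line 2's own D5 lists called 47.2% (CTL) and 26.4% (MR) of the line 2 regions but 9.49% and 5.38% of the line 1 regions. They called 89.2% and 75.2% of the shared regions. Of the 130 line 2 regions with no early WT call, 74 were called in the line 2 D5 CTL list and 45 in its D5 MR list, against at most 3 in any of the 4 WT D5 lists. Of the 2600 line 1 regions with no early WT call, 210 were called in the line 2 D5 CTL list. In WT at D5, 6.33% to 7.19% of line 1 regions were called in CTL and 25.7% to 27.6% in MR. For line 2 regions these were 11.8% to 12.7% and 32.1% to 33.2%. The D5 lists of line 1 held 644 and 1881 peaks at backgrounds of 0.128 and 0.101 fragments per position, and called 1 and 16 of the line 1 regions, so they did not show whether line 1 regions were still open.

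**Figure D2:**
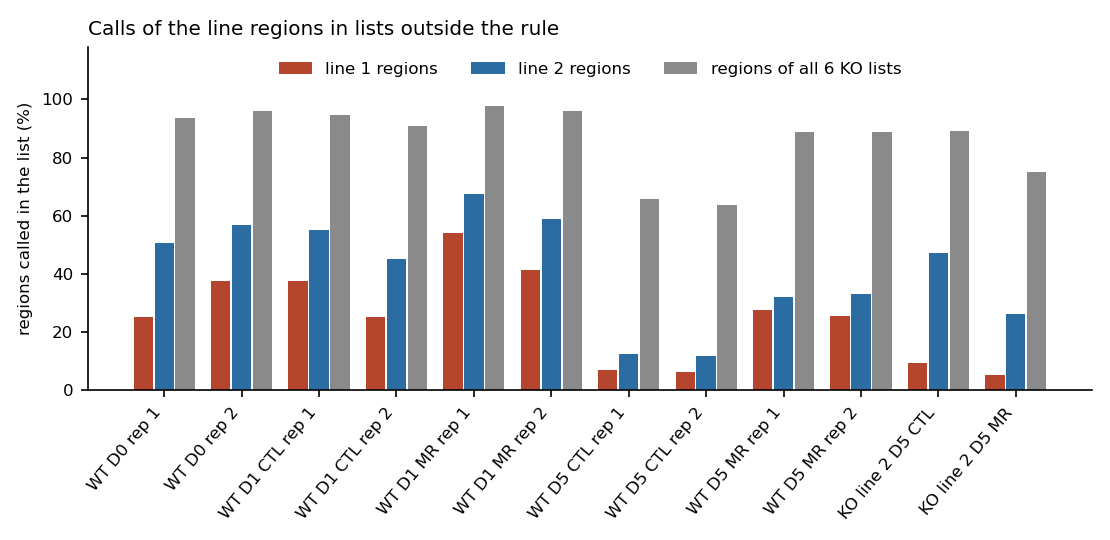
Percent of regions (y axis) called in each WT list and in the 2 D5 lists of KO line 2 (x axis), for line 1 regions (red), line 2 regions (blue) and regions called in all 6 early KO lists (grey). Blue bars exceed red bars in every list, most clearly in the line 2 D5 CTL list (47.2% against 9.49%).

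Both sets lay away from gene ends. Within 1 kb of an end of a protein-coding gene lay 9.14% of line 1 regions and 8.08% of line 2 regions, against 30.1% of shared regions and 17.9% of all merged regions. In gene bodies lay 44.3% and 52.6%, against 38.8% of shared regions. More than 100 kb from any gene end lay 19.5% and 24.0%, against 9.21% of shared regions. In each of these shares both sets stood on the same side of the shared regions. At equal list length the gene-end share was 17.6% for line 1 regions and 9.43% for line 2 regions.

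Line 1 regions were concentrated on chromosomes 13 and 14, and line 2 regions on chromosomes 16 and 12. Per 100 shared regions of the same chromosome there were 67.1 line 1 regions on chromosome 13 and 59.6 on chromosome 14, followed by 43.6 on chromosome 18, 43.1 on chromosome 17 and 38.3 on chromosome 8. The lowest values were 18.4 on chromosome 12 and 20.05 on chromosome 16, and the value over all chromosomes was 30.7. Line 2 had the opposite extremes. It had 5.69 regions per 100 shared regions on chromosome 16 and 4.67 on chromosome 12, against 0.747 on chromosome 14, 0.886 on chromosome 13 and 2.05 over all. On chromosome 13 there were 27.1 line 1 regions in 0 of 6 WT lists and 9.24 in 6 of 6 per 100 shared regions, against medians of 11.1 and 3.98 over chromosomes. At equal list length chromosomes 14 (20.4 per 100), 13 (19.6), 8 (14.1) and 17 (13.1) were the highest for line 1. Chromosomes 16 (15.8) and 12 (13.1) were the highest for line 2. The libraries of the lines still differed in background at equal list length, and the part of depth in this pattern was not tested.

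The shared regions, which both lines had, were ranked within each list by −log10 p, and the ranks of the lines were compared. The rank of a shared region was higher in line 1, whose lists are longer, by a median of 14.1 percentile points at D0, 4.35 at D1 CTL and 4.14 at D1 MR. These medians were subtracted, and the part of list length and depth in them was not tested. Relative to them, shared regions of chromosome 17 stood higher in line 1 by 6.59 ± 1.51 points (mean ± SD over the 3 conditions), those of chromosome 14 by 6.43 ± 1.66, of chromosome 13 by 5.06 ± 1.29 and of chromosome 18 by 4.34 ± 1.42. Those of chromosomes 12 and 15 stood lower, at −5.04 ± 1.79 and −4.03 ± 2.23. The sign was the same in all 3 conditions for these 6 chromosomes. Compared with the WT libraries of the same condition and centred in the same way, chromosome 17 stood at −6.62 ± 1.46 in line 2 and −0.81 ± 0.90 in line 1. Chromosome 14 stood at −5.18 ± 1.73 and 0.37 ± 1.40, and chromosome 13 at −3.76 ± 0.85 and 0.55 ± 1.13. On these 3 chromosomes line 2 was the line further from WT. Chromosome 18 stood at −2.36 ± 1.05 in line 2 and 1.72 ± 1.39 in line 1, on opposite sides of WT. Chromosome 12 stood at −4.30 ± 0.60 in line 1 and 0.12 ± 0.61 in line 2, and chromosome 15 at 4.57 ± 2.06 in line 2 and 0.88 ± 1.05 in line 1. Across the 20 chromosomes the rank difference and the number of line 1 regions per 100 shared regions went together (Pearson r = 0.85, Spearman's rank coefficient 0.87), and for line 2 regions r was −0.37. The points share the same 6 libraries, so this is a description. Copy number of the chromosomes was not measured here.

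**Figure D3:**
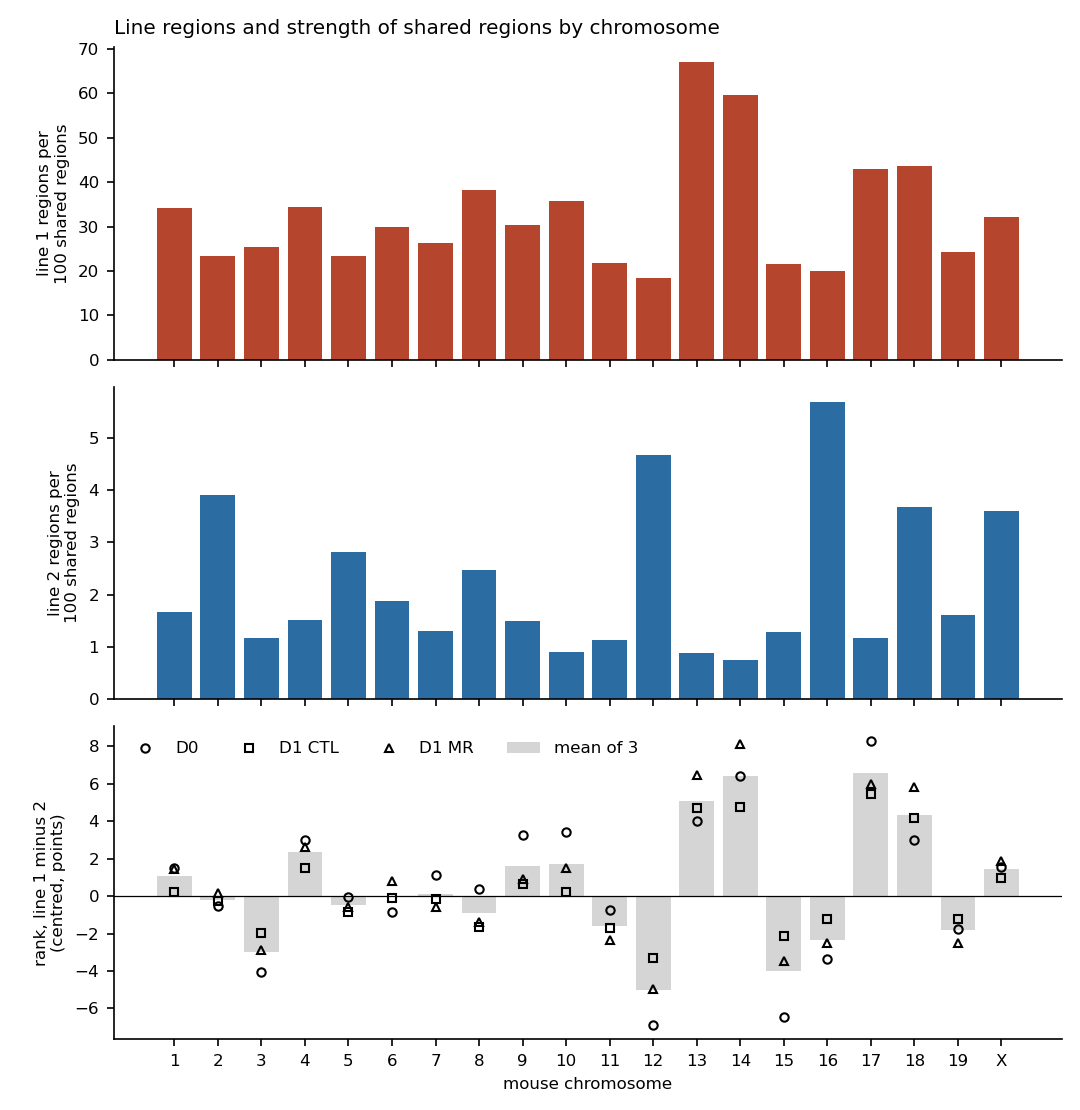
By mouse chromosome (x axis): line 1 regions per 100 shared regions (top), line 2 regions per 100 shared regions (middle), and the median rank of shared regions in line 1 minus line 2 after subtracting the median of all shared regions (bottom; grey bars are means of 3 conditions, points are single conditions, in percentile points). Chromosomes 13 and 14 are highest in the top panel, 16 and 12 in the middle panel, and 13, 14, 17 and 18 lie above 0 in all 3 conditions at the bottom.

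At a finer scale the line 1 regions reached their highest density in parts of chromosomes 13 and 8. In windows of 5 Mb, line 1 regions were a median of 22.9% of line 1 plus shared regions over 412 windows with at least 20 regions. The share was 50% or more in 15 windows, 7 of them on chromosome 13. It was highest at chr13:10000001-15000000 (30 line 1 and 11 shared regions, 73.2%). The window with the most line 1 regions of the 10 highest, chr8:85000001-90000000, had 83 line 1 and 51 shared regions (61.9%). It holds N4bp1, a suppressor of NF-kB signalling, which had the most line 1 regions assigned of any gene (21). Of these, 4 overlapped the gene, and the others had it as their nearest gene. For line 2 the median was 1.10% over 376 windows, 171 of them without a line 2 region. Another member of the same set lay within 50 kb of 51.0% of line 1 regions, 13.97% of line 2 regions and 81.7% of shared regions. The sets stand in the same order by size, and the part of size in these shares was not tested.

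Some line regions formed stretches, runs of regions with no peak of the other line between them. Line 1 had 49 stretches of at least 5 regions, with 315 regions (4.59% of the set), and line 2 had 3, with 18 regions (3.93%). The run of line 1 with the most regions had 20 over 379 kb (chr17:49519659-49899077), across Daam2 and Kif6. In the peak-free interval of line 2 around it, 582 kb long, line 1 had 30, 31 and 23 peaks at D0, D1 CTL and D1 MR and the 6 early WT lists 0 to 3. Among the 30000 strongest peaks of each list, line 1 still had 6, 8 and 9 peaks in the stretch and line 2 had 0. WT D1 MR replicate 1 had more peaks in all (69881) than any line 1 list and had 3 in this interval. WT D0 replicate 2 had a higher background (5.38) than any line 1 list and had 1. The part of list length and depth in the stretches was not tested.

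A second run of line 1, 12 regions over 655 kb (chr14:28427757-29082528), crossed Erc2, a protein of the presynaptic active zone, Wnt5a, a non-canonical Wnt ligand, Cacna2d3 and Lrtm1. Line 1 had 15, 22 and 15 peaks in the peak-free interval of line 2 around it, and none of the 6 early WT lists had any. The third run, of 11 regions (chr7:129649062-130299662), lay over Fgfr2, a fibroblast growth factor receptor, where line 1 had 28, 28 and 18 peaks and the WT lists 1 to 3. The next runs had 9 regions each, at Slit3 (chr11:35083166-35528141), a secreted guidance ligand, and at chr13:10696256-11181448, which spans no protein-coding gene. At Slit3 and on chromosome 13 no early WT list had a peak inside the run. Among the 30000 strongest peaks of each list, line 1 had only 0, 0 and 1 peaks in the Slit3 run at D0, D1 CTL and D1 MR. It had 4, 5 and 5 in the run on chromosome 13, 7, 6 and 11 in that on chromosome 14 and 6, 5 and 3 in that at Fgfr2. The absence of line 2 peaks inside these runs is fixed by how they were chosen. Not all line 1 runs lacked WT peaks. At Bdkrb2 (chr12:105498522-105603188), a bradykinin receptor gene, 4 of 7 regions were called in 6 of 6 WT lists and the early WT lists had 9 to 15 peaks inside the run.

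The 2 line 2 runs with the most regions lay where all early WT lists had peaks. The first had 7 regions over 1259 kb (chr12:89811912-91070891), across Nrxn3, Dio2 and the centrosomal gene Cep128. Around it the line 1 lists had no peak over 2912 kb, while line 2 had 9, 13 and 11 peaks and the early WT lists 12 to 25. Of its 7 regions, 5 were called in 6 of 6 WT lists. The second, of 6 regions over 122 kb (chr5:129177931-129299620) at Adgrd1, had all 6 regions called in 6 of 6 WT lists. There line 1 had no peak over 434 kb, line 2 had 6, 11 and 8 and WT had 11 to 20. In both intervals the longer lists of line 1 were the ones without peaks, which is fixed by how the runs were chosen. The part of list length and depth was not tested. The third, of 5 regions on chromosome 18 (chr18:21571967-22458308), spanned Klhl14, 4930426D05Rik, Ccdc178 and Asxl3. Of its regions 2 were called in 6 of 6 WT lists and 2 in 0, and inside the run the WT lists had 3 to 5 peaks against 5, 7 and 6 in line 2. The next, with 4 regions each, were at Igsf5 (chr16:96358013-96396340), where all 4 regions were called in 6 of 6 WT lists, and at Plxdc2 (chr2:16709959-17158390), where 1 of 4 was. Inside the Plxdc2 run the WT lists had 1 to 3 peaks against 5, 7 and 5 in line 2.

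**Figure D4:**
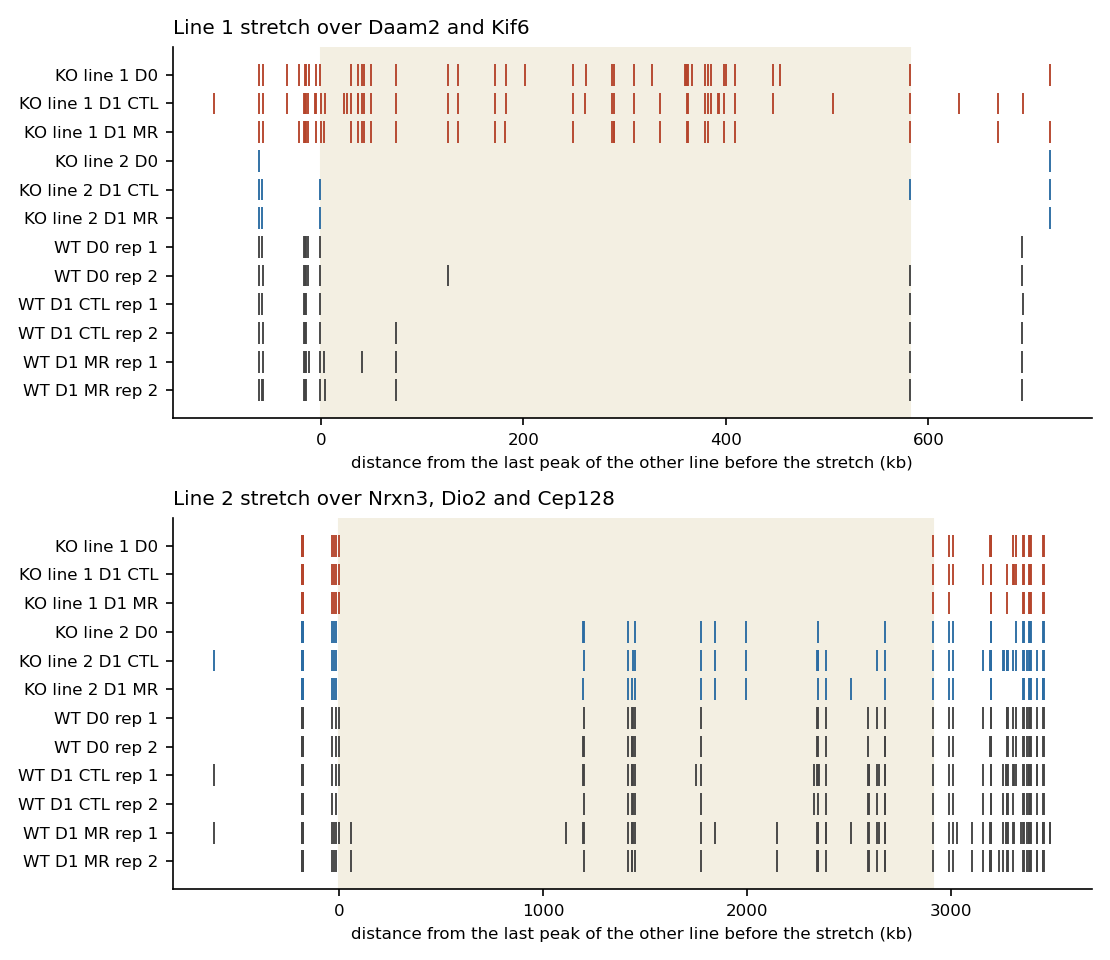
Peaks (vertical ticks) of the 12 early libraries (rows) around the line 1 stretch over Daam2 and Kif6 (top) and the line 2 stretch over Nrxn3, Dio2 and Cep128 (bottom), by distance in kb from the end of the last region of the other line (x axis). The shaded interval has no peak of line 2 (top, 582 kb) or line 1 (bottom, 2912 kb). WT rows are nearly empty in the top interval (0 to 3 peaks) and filled in the bottom one (12 to 25 peaks).

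Each region was assigned to the protein-coding gene it overlapped or, if none, to the nearest one. Line 1 regions reached 4025 of 21631 genes (18.6%) and line 2 regions 397 (1.84%). After N4bp1, the genes with the most line 1 regions were Tns3, which encodes the focal adhesion protein tensin 3 (16), Lrmda (15), Slit3 (15), and Cacna1a, a calcium channel subunit, and Kif6 (14 each). Of these, Kif6 had no shared region, Slit3 had 2 and Tns3 had 19. For line 2 they were Adgrd1 (6), B3galt1, a galactosyltransferase (5), Nrxn3 (5), Igsf5 (4) and Bcas1 (3, the first by name of 5 genes with 3).

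Genes of growth factor signalling had line 1 regions more often than the other pathway lists. In that list 18 of 23 genes had at least 1 line 1 region (78.3%, against 18.6% of all genes), with a median of 2 regions per gene against 0 over all genes. The most were at Tgfb2 (6), a TGF-beta ligand, Bmp4 (5), a bone morphogenetic protein, Wnt5a (4), and the TGF-beta receptor gene Tgfbr2 together with the Notch ligand genes Dll1 and Jag1 (3 each). The list had 43 line 1 regions to 73 shared regions, 58.9 per 100, against 30.7 per 100 over all genes. It had 0 line 2 regions. Shared regions reached 19 of its 23 genes (82.6%, against 47.0% of all genes), so shared regions were also frequent at these genes, and the part of this in the count was not tested. Some of the genes lay on chromosomes dense in line 1 regions, such as Wnt5a on chromosome 14 and Dll1 on chromosome 17. The list was not compared within chromosomes, so the part of chromosome was not tested either.

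**Figure D5:**
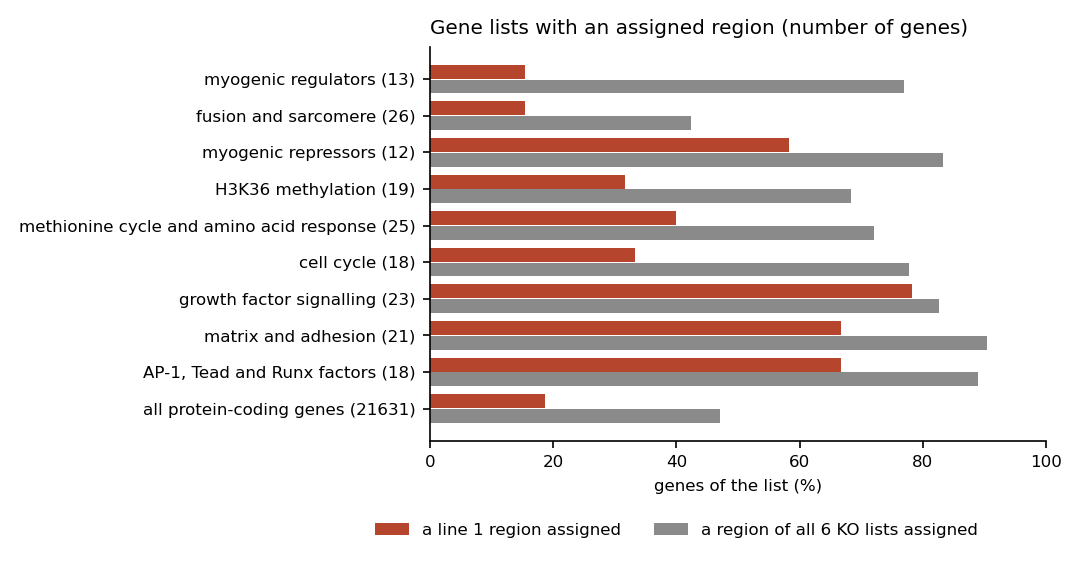
Percent of the genes of each list (x axis) with at least 1 line 1 region assigned (red) or at least 1 region of all 6 KO lists assigned (grey), with the number of genes in parentheses (y axis). Growth factor signalling has the longest red bar (78.3%), and all protein-coding genes stand at 18.6% and 47.0%.

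The other pathway lists had fewer line 1 regions per shared region, and are read against 18.6% of all genes and 30.7 regions per 100 shared regions. Matrix and adhesion genes had line 1 regions at 14 of 21 genes (66.7%) and 31.4 per 100 shared regions, the latter near that of all genes, led by Col4a1, a basement membrane collagen, and Cdh2, N-cadherin (5 each), then Col4a2, Col5a2 and Ncam1 (3 each). AP-1, Tead and Runx factors had 12 of 18 genes (66.7%) and 21.6 per 100, led by Runx1 (5). Shared regions reached 90.5% of the matrix and adhesion genes and 88.9% of these factors, against 47.0% of all genes. Repressors of myogenesis had 7 of 12, with 3 regions each at Id2, Twist2 and Zeb1, and cell cycle genes 6 of 18, with 7 at Myc and 4 at Ccnd1, the cyclin D1 gene. The methionine cycle and amino acid response list had 10 of 25 genes, with Mat2b, a regulatory subunit of methionine adenosyltransferase, and Amd1 at 2 regions each. H3K36 methylation genes had 6 of 19, led by Zmynd11, a reader of H3K36me3 (2). Line 1 regions per 100 shared regions were 28.6 for the repressors, 27.6 for cell cycle, 28.6 for the methionine list and 30.4 for H3K36 methylation. None of these was above that of all genes. Shared regions reached 83.3%, 77.8%, 72% and 68.4% of the genes of these lists, against 47.0% of all genes. The share of genes with a line 1 region was 15.4% in both myogenic lists, near that of all genes. Myogenic regulators had 2 of 13 genes (Pax3 with 2 regions, Mef2c with 1) and 9.38 per 100 shared regions, and fusion and sarcomere genes 4 of 26 and 17.9 per 100 (Neb with 2, Des, Tnni1 and Chrna1 with 1).

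Line 2 regions met 3 of the 9 pathway lists. Myogenic regulators had 2 of 13 genes with a line 2 region, against 1.84% of all genes. Mef2c, a muscle transcription factor, had 2 regions in its body. That at chr13:83524530-83524923 had folds of 4.42, 8.75 and 3.07 in line 2, highest at D1 CTL, and was called in 2 of 6 early WT lists. That at chr13:83532105-83532226 had 3.62, 7.60 and 5.44. Eya2, a co-activator of homeodomain factors, had 1 region (folds 3.18, 6.46 and 3.76) called in 6 of 6 WT lists at folds of 6.004 to 10.9, so line 2 was below the WT range at D0 and D1 MR. The other line 2 regions of listed genes lay at Twist2, Col1a1 and Ncam1, with 1 each.

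At gene ends, within 1 kb, the listed genes with a line 1 region were Chrna1, Zmynd11, Dnmt3b, Ccnd1, Mdm2, Tgfbr2, Dll1, Fosb and Junb, against a background of 3.2% of all genes. For line 2 it was Col1a1 alone (background 0.176%). The Dll1 region (chr17:15375780-15376506) had folds of 4.07, 6.03 and 5.48 in line 1 and 2.62 to 6.46 in WT. The region at Chrna1, the muscle acetylcholine receptor subunit (chr2:73579308-73579459), had 3.41, 4.52 and 4.80, with 3.59 to 4.70 in WT and a call in 4 of 4 WT D5 lists. The region at Dnmt3b (chr2:153649418-153649695), the DNA methyltransferase that reads H3K36me3, had 3.54, 3.53 and 3.21 and was called in 4 of 6 WT lists at 3.103 to 4.58. At these 3 genes line 1 overlapped WT, and line 2 had no peak in the region. The region at the Col1a1 end (chr11:94936155-94936394), a fibrillar collagen gene, had 3.58, 4.31 and 3.04 in line 2, 0 early WT calls and a call in both D5 lists of line 2. At D0 8 of the 9 line 1 regions at gene ends ranked under the 50th percentile of their list, all but Fosb. At D1 CTL those at Chrna1, Fosb, Ccnd1, Zmynd11 and Dll1 ranked above it, and at D1 MR those at Chrna1, Ccnd1 and Dll1.

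Setd2 itself did not distinguish the lines. Its gene-end region (chr9:110531909-110533230) was called in all 6 knockout and all 6 early WT lists, at folds of 6.27, 8.73 and 6.67 in line 1 and 4.63, 6.95 and 5.62 in line 2. An open promoter says nothing of an edit, so this gives no check of the genotype labels. Markers of skeletal muscle cells with a peak at a gene end numbered 5, 5 and 5 of 8 in line 1, 4, 6 and 4 in line 2 and 5 to 8 in the early WT lists. Myod1, Des, Cdh15 and Chrna1 had one in all 6 knockout lists, Mymk, the fusion protein myomaker, in 3 of 3 line 1 lists and in the D1 CTL list of line 2, and Myog in none of the 6. Of 8 fibroblast genes, 4, 3 and 3 had a gene-end peak in line 1, 3, 4 and 3 in line 2 and 4 in each early WT list. Adipocyte genes with one numbered 2, 2 and 2 of 7 in line 1 and 1, 3 and 3 in line 2. Cartilage and bone genes numbered 2, 3 and 2 of 8 and 1, 2 and 2, and blood genes 2, 2 and 2 of 7 and 1, 2 and 2. In the early WT lists these 3 lists had 2 to 4, 2 to 4 and 1 to 3. Of the 7 endothelial genes 0 had a gene-end peak in any early list. Of 7 epithelial genes, Krt8 alone had one in the line 1 lists, and none had one in line 2, with 0 or 1 in the early WT lists. Of 7 neural genes 1 to 3 had one in line 1 and 1 in each line 2 list. Away from gene ends, 5 of the 7 endothelial genes had line 1 regions assigned (71.4%, against 18.6% of all genes), 12 regions to 7 shared ones, with 6 at Cdh5 and 3 at Kdr. Line 1 regions were also assigned to 4 of 8 cartilage and bone genes (9 regions), to 3 of 8 fibroblast genes (7 regions), to 2 of 8 skeletal muscle genes and to 1 of 7 genes each of the adipocyte, blood and epithelial lists. Line 2 regions were assigned to 3 of 8 fibroblast genes and to 1 of 7 genes each of the epithelial and neural lists. The part of other cell types in the regions of the lines was not tested.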

How the data were processed

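ATAC-seq libraries of C2C12 cells, 20 in all, were grouped from their titles. Each deposited file is a broadPeak list of 1 library, on GRCm38 per the submitters' processing notes. Per peak the authors deposited a score, a ratio (fold enrichment over background), and a p-value and q-value as −log10. The aligner, the peak caller, filters, the handling of duplicates and any shift of reads for the transposase are not given in the sources used here, and their effect was not tested. Tagmented DNA was amplified with 10 PCR cycles, per the labels' protocols.

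Lists were merged at 1 bp overlap with numpy 2.4.6 and pandas 2.3.3 in Python 3.11.15. Fold and −log10 p were used to describe or rank peaks within their list. Read totals were not used here. The background pileup was solved from the values of fold and −log10 p that occurred together most often in each list, assuming a fold of (k + 1)/(λ + 1) and a Poisson p for pileup k over background λ. This is an assumption about the caller. Genes came from the RefSeq table of GRCm38.p6 (21631 protein-coding genes), which gives no strand here, so either end counts as a gene end. Promoter windows on opposite strands that overlapped were reverse complements in 1892 of 1892 pairs. On simulated lists over 79257 regions, 200 of 200 planted regions of each line were recovered. Each planted region was in every list of its line and in none of the other. Recovery therefore checks the counting only, not the effect of depth or of missed or weak peaks.

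The members and gene lists were chosen with earlier results of these data known. The calls chose the members and carry no test. List properties were compared by exact permutation over libraries (scipy 1.17.1) with Benjamini-Hochberg adjustment. Named regions were the 6 strongest per line in 6 of 6 and in 0 of 6 early WT lists outside chromosome 18. Also named were the 4 stretches with the most regions, with ties, and the 5 genes with most regions per line. Listed genes with a region at a gene end, up to 4 genes per list, and Setd2 were named too. Uggt2, the Lrtm1 promoter, the Bdkrb2 stretch and the marker genes were named after their values were seen. Alternatives were equal list length, stricter peaks, other merging and overlap, and leaving out each condition.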

Additional observations from a re-analysis of the deposited data

Results flagged for a closer look

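The number of peaks changed in opposite directions in the lines between D0 and D1 CTL. It fell by 2485 in line 1, from 63530 to 61045, and rose by 16035 in line 2, from 30629 to 46664. Each value rests on 1 library per line and condition, so the difference was not tested. The background pileup was lower at D1 CTL than at D0 in both lines (3.50 against 5.20 in line 1, 2.30 against 2.52 in line 2). From D1 CTL to D1 MR the number of peaks fell by 12585 in line 1 and fell by 11463 in line 2.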

How the results depend on the processing

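No paired analysis was possible by replicate number because all knockout libraries are labelled replicate 1. The lines were paired by condition instead, and peak number, width, gene-end share and background then had an exact permutation p of 0.25, the smallest that 3 pairs allow. With the 30000 strongest peaks per list there were 1306 line 1 and 1315 line 2 regions. Of the line 1 regions 660 (9.63%), and of the line 2 regions 259 (56.6%), were members there too. The share in 6 of 6 early WT lists was then 40.8% (line 1) and 56.8% (line 2), and in 0 of 6 it was 20.2% and 13.4%. The gene-end share difference reversed to 1.21 percentage points. With peaks of −log10 q of at least 5 in all knockout lists, line 2 had 190 regions (line 1 6350), the 6 of 6 shares were 43.8% and 56.3% and the 0 of 6 shares 15.8% and 19.5%. Without the D0, D1 CTL or D1 MR libraries the rule asks for 2 lists in place of 3. Line 1 then had 10655, 11229 and 12854 regions and line 2 1675, 628 and 806. The shares of line 1 in 6 of 6 lists were 22.5%, 29.5% and 12.99%, and in 0 of 6 41.2%, 31.5% and 50.7%, counted over the WT lists of the conditions kept. For line 2 the 6 of 6 share without D1 CTL was 43.5% and the 0 of 6 share without D1 MR 36.5%. When peaks had to cover 50% of a region, the 6 of 6 shares were 10.2% and 33.3% and the line 1 share in 0 of 6 was 36.5%. With no line 2 peak within 1 kb, a setting chosen after seeing the data, 6208 line 1 regions remained, 39.5% of them in 0 of 6. With WT peaks of −log10 q of at least 2 the line 1 shares were 12.4% and 41.1%. The cause of these shifts beyond their construction was not tested. The share in 6 of 6 WT lists was higher for line 2 than for line 1 regions in each of these settings. The share in 0 of 6 was higher for line 1 (37.9% against 28.4%) in each but the −log10 q minimum of 5, where the order was reversed. Depth, lower in line 2, limits what its lists could show as absent.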

Other observations

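Peak-free intervals of 1 line that hold regions of 6 of 6 early WT lists were counted after the data were seen. Which line had more depended on the minimum. With at least 1 WT region line 1 had 1467 such intervals and line 2 2772, with at least 3 they had 54 and 63, and with at least 5 they had 14 and 9. The interval of line 1 with the most, 10 WT regions over 510 kb (chr12:3572242-4082532), spans Dtnb, Dnmt3a, a de novo DNA methyltransferase, Pomc and Efr3b. Line 2 had a peak at 7 of these 10 regions in at least 1 list and at 1 of them in all 3. The next are those at Adgrd1 and Nrxn3, with 9 WT regions each.

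In line 2 the intervals with the most WT regions, 6 each, were on chromosome 12 too. One, of 652 kb (chr12:105032969-105684733), spans the Tcl1 cluster and the bradykinin receptor genes Bdkrb1 and Bdkrb2. Line 1 had a peak at all 6 of its WT regions in at least 1 list, and at 4 of them in all 3. The other, of 724 kb (chr12:108903225-109627057), spans the imprinted genes Dlk1 and Rtl1, where line 1 had a peak at 3 of 6 and at none in all 3 lists.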
